A study of Mus musculus with 12 samples.

Results

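Interferon-stimulated genes are the transcripts that cells raise when an interferon reaches its receptor. The list holds 35 of them, chosen by gene symbol among the 40594 genes of the count table, and all 35 were found and passed the filter on low counts, which left 15494 genes. They comprised 12 sensors and antiviral effectors, 3 transcription factors, 6 genes of ubiquitin-like conjugation and ADP-ribosylation, 5 GTPases, 3 genes of antigen processing and 6 others. RNA was sequenced from the right ventricle (RV) and the left ventricle (LV) of adult mouse hearts. The 12 libraries form 4 groups of 3: Wnt LOF RV, control RV, Wnt LOF LV and control LV, where Wnt LOF stands for loss of function in Wnt signalling. The labels name neither the altered gene, nor a driver of its loss, nor the strain, so a targeted gene could not be checked. Nor do they state whether replicates are separate animals, so a p-value here covers only the variation among these libraries, part of which may be technical.

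Type I interferons bind a receptor whose kinases activate STAT proteins, Stat2 among them, which join Irf9 and bind the interferon-stimulated response element (ISRE) in target promoters. Interferon gamma acts through another element, the gamma-activated site (GAS). The products sense foreign nucleic acid, block translation and release of virus, and present peptides. Most tissues keep a low tonic level of these transcripts without infection.

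The promoter windows of some members show the letters through which the pathway is known to act. Sequences came from RefSeq (GRCm38.p6), 250 bases before to 50 after each annotated start, and 29 of the 35 genes were in that table. The core of the ISRE was searched as GAAANNGAAA and the GAS as TTCNNNGAA, on both strands. The ISRE core was present for 15 of the 29 genes, 51.7% of them, against 3.99% of the 27025 genes in the table. The GAS letters were present for 9 of the 29 genes (31.0%), against 9.55% of all genes. A match is a run of letters, not a measured binding site, and the motifs can overlap each other. The 5 windows printed here belong to genes whose values are given in full, and run from several overlapping copies of the ISRE core in Isg15 to no copy in the Irf7 window. Capitals mark the ISRE core, which reads TTTCNNTTTC where it lies on the other strand.

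The Isg15 window is chr4:156200769-156201068 on the minus strand, with 3 overlapping cores, the nearest 66 bases before the start. The Oas1a window is chr5:120907476-120907775 on the minus strand, with 2 overlapping cores, the nearest 14 bases before the start. The Gbp7 window is chr3:142530086-142530385 on the plus strand, with 1 core, 53 bases before the start. The Ifit3 window is chr19:34583279-34583578 on the plus strand, with 2 separate cores, the nearest 122 bases before the start. The Irf7 window is chr7:141266375-141266674 on the minus strand.
Isg15: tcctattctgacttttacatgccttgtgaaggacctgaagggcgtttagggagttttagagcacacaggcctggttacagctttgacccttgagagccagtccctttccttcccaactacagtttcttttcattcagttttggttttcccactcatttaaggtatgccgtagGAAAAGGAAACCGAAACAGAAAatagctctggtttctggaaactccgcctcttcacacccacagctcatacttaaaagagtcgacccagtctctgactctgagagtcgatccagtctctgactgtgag
Oas1a: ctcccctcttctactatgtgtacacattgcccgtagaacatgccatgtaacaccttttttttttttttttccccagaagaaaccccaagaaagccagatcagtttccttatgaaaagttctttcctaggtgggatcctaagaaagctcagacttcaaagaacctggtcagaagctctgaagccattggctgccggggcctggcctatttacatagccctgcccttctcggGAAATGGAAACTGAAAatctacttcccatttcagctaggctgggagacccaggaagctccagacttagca
Gbp7: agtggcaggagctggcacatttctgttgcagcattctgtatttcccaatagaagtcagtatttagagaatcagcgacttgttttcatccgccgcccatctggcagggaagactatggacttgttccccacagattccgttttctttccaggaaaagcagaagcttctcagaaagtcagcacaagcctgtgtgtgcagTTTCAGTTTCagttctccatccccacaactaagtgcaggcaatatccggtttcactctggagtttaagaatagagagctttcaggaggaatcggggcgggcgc
Ifit3: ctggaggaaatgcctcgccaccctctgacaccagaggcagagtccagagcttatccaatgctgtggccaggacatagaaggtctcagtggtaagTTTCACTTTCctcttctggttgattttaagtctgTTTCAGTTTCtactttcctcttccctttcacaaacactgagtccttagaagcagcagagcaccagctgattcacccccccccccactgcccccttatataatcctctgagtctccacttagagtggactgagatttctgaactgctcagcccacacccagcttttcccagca
Irf7: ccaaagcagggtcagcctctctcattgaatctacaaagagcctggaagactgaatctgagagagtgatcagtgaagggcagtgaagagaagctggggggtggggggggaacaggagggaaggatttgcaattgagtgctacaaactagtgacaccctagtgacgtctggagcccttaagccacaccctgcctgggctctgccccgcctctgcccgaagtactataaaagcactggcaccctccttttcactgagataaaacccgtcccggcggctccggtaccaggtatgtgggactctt

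Several members are neighbours in the genome. Ifit2, Ifit3 and Ifit1 lie in that order on chromosome 19, Gbp7, Gbp3 and Gbp2 on chromosome 3, and Psmb9, Tap1 and Psmb8 on chromosome 17, where Psmb9 and Tap1 are transcribed away from each other from starts 226 bases apart. Dtx3l and Parp9, on chromosome 16, overlap. The sources used here do not state how strand was handled in counting, so reads in that overlap cannot be assigned to either gene, and their values are not independent. Ifit and Gbp genes also have close paralogs that can share reads.

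All 35 transcripts were present at low to moderate levels. CPM are counts divided by the library size in units of 1e+06. On the scale of CPM per kb of exon, averaged over the 12 libraries, Bst2, the membrane tether of budding virus, had the highest level, at 18.2. It was followed by Ifi27 at 12.5, Ifi35 at 10.8, Lgals3bp, a secreted glycoprotein that binds galectins, at 9.92 and Gbp2 at 9.38. The ranges of these 5 over the libraries overlapped from each gene to the next in the order. Gbp2 and the next gene, Gbp7, did not overlap. A wide middle group followed, from Gbp7 at 5.84 to Usp18 at 1.39, and the ranges of neighbours in it overlapped as well. At the bottom were Oasl2 at 0.947, Isg15, the ubiquitin-like modifier, at 0.683, Ifi44 at 0.671, Oas1a at 0.511 and Zbp1, a sensor of Z-form nucleic acid, at 0.160. Isg15 rested on 104 reads, Zbp1 on 115 and Oas1a on 199 over all libraries, so counting error is large for these 3. In CPM without the length, Parp14, an ADP-ribosyltransferase, took the most reads, 10587 in all.

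**Figure D1:**
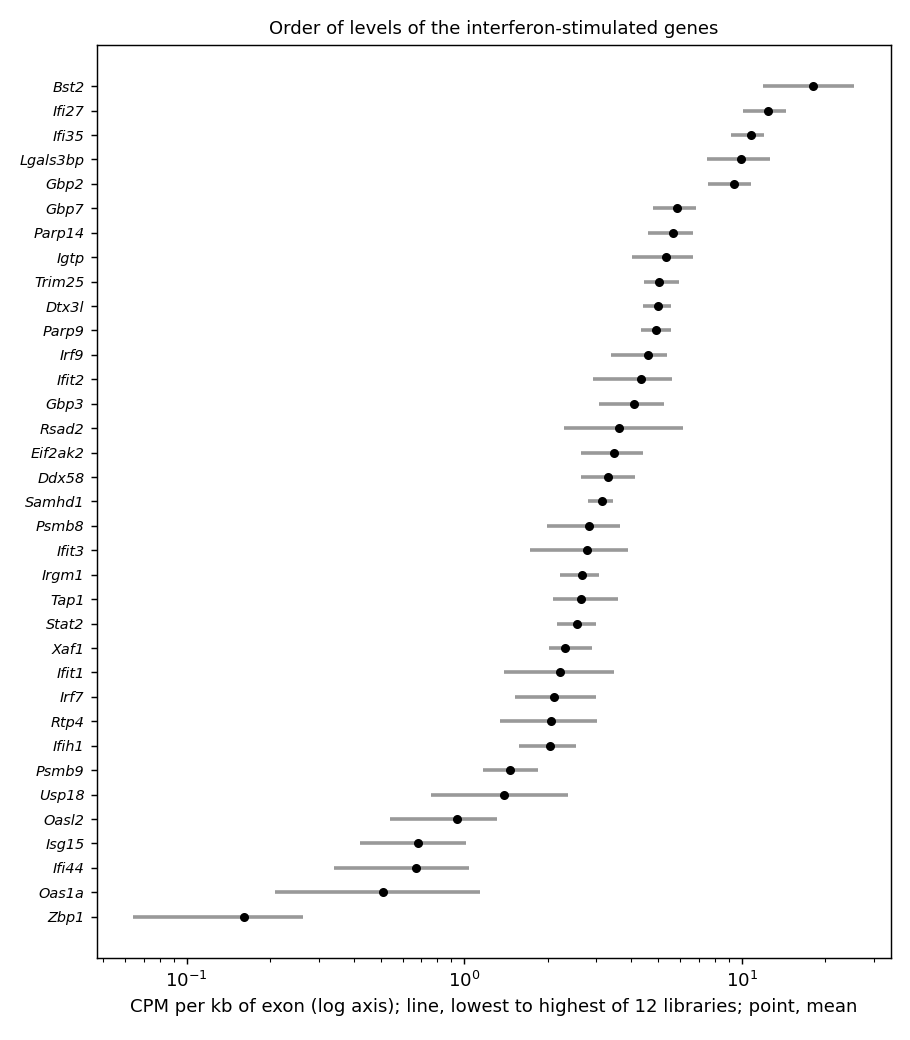
Level of each of the 35 interferon-stimulated genes in CPM per kb of exon on a log axis, ordered by the mean (point), with a line from the lowest to the highest of the 12 libraries. Bst2 stands at the top with 18.2 and Zbp1 at the bottom with 0.160, and most neighbours overlap.

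Total counts ran from 13.3 to 19.2 (in units of 1e+06), with 4.62% to 8.29% from mitochondrially encoded genes. Cardiomyocyte markers summed to between 67384 and 75587 CPM, in keeping with ventricular muscle. Ddx3y, a Y-linked gene, had 102 to 136 CPM in the library numbered 3 of every group and at most 0.771 CPM in the others, so each group mixes sexes in the same way and its libraries do not all come from 1 animal. The library labelled WntLOF LV 1 and the library labelled WntLOF RV 1 went against their ventricle in genes that separate the ventricles. Wif1, a secreted Wnt inhibitor, had 2.55, 14.2 and 13.2 CPM in Wnt LOF RV libraries 1 to 3 and 11.98 to 18.4 CPM in control RV, against 13.5, 1.64 and 1.62 CPM in Wnt LOF LV libraries 1 to 3 and 2.62 to 3.17 CPM in control LV. Aqp4, a water channel, repeated this, with 8.10 CPM in the library labelled WntLOF RV 1 and 31.2 CPM in the library labelled WntLOF LV 1. The labels were kept, and the medians over members and the values of some members are also given with these libraries left out. Other values are given only with them. The 4 atrial markers summed to between 17.0 and 85.3 CPM. One of them, Myl7, stood out in the library labelled WntLOF RV 3, with 10.2 CPM against at most 1.26 CPM in the others. The sum there, 44.8 CPM, was within the range of the rest. For Wnt LOF against control in the RV, all 3 tested atrial markers had a log2 fold change above 0, with a median of 1.61. At an unadjusted p under 0.05 (edgeR's quasi-likelihood test) 2 of them were higher, where 1.54% of all genes were. The part of atrial tissue in the results was not tested.

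In control hearts most interferon-stimulated genes lay lower in the RV than in the LV. Of the 35, 32 had a log2 fold change (RV over LV) below 0 and 3 above, where 49.0% and 51.0% of all tested genes did, and the median was -0.28, against 0.00 over all genes. No member and no other gene passed edgeR's quasi-likelihood test with Benjamini-Hochberg adjustment over 15494 genes at an adjusted p of 0.05 (0% of genes called). At an unadjusted p under 0.05 there were 10 lower members and 0 higher ones, where 2.50% and 2.39% of all genes were lower and higher. The smallest adjusted p of a member was 0.922. In 8 members every RV library lay below every LV library, as 5.92% of all genes did, and in 0 members the reverse held (6.68% of genes). In whole tissue, fewer cells of a type and less RNA per cell cannot be told apart.

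The GTPase Gbp7, of a family that coats and breaks pathogen vacuoles, had the smallest p of the members. It had 30.3, 26.9 and 27.5 CPM in control RV libraries 1 to 3, against 34.0, 38.4 and 34.4 CPM in control LV libraries 1 to 3. The groups did not overlap. The log2 fold change was -0.34 (SE 0.10, unadjusted p = 0.00507, edgeR's quasi-likelihood test). All 5 GTPases lay below 0, with a median of -0.31, down to Irgm1 with -0.07 (SE 0.12). Gbp2 had -0.28 (SE 0.12), Gbp3 -0.33 (SE 0.17) and Igtp -0.31 (SE 0.16).

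Irf7, the factor that amplifies type I interferon production, had 6.91, 6.81 and 5.74 CPM in control RV libraries 1 to 3, against 8.22, 11.3 and 7.71 CPM in control LV libraries 1 to 3. Every RV library was below every LV library, and the difference was -0.49 on the log2 scale (SE 0.17, unadjusted p = 0.0109, edgeR's quasi-likelihood test). The library labelled control LV 2 carried much of its size, and without it the difference was -0.30. The other transcription factors, Stat2 and Irf9, which are parts of the ISRE-binding complex, had smaller differences of -0.17 (SE 0.13) and -0.13 (SE 0.14), and their ranges overlapped.

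Among the sensors and antiviral effectors, 10 of 12 lay below 0, with a median of -0.32. Oasl2, of the oligoadenylate synthetase family that triggers RNA decay, had 4.07, 4.96 and 3.46 CPM in control RV libraries 1 to 3, against 5.29, 8.22 and 5.21 CPM in control LV libraries 1 to 3. The groups did not overlap (log2 fold change -0.59, SE 0.23, unadjusted p = 0.0244, edgeR's quasi-likelihood test). The library labelled control LV 2 stood highest, and the difference was -0.34 without it. Ifih1, which encodes the sensor of long double-stranded RNA, had 16.3, 15.1 and 12.8 CPM in control RV libraries 1 to 3, against 17.4, 20.7 and 17.4 CPM in control LV libraries 1 to 3. Its groups did not overlap (-0.33, SE 0.13). Ifit2, which binds RNA and holds back translation, had 16.3, 12.8 and 11.5 CPM in control RV libraries 1 to 3, against 20.6, 20.9 and 15.3 CPM in control LV libraries 1 to 3. The RV library numbered 1 exceeded the LV library numbered 3, so the groups overlapped, while each RV library was below the LV library of its own number. The log2 fold change was -0.48 (SE 0.19).

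Same-numbered ventricles deviated together, and Ifit2 was the member whose call depended on using this. With the replicate number as a block and the control groups compared alone, Ifit2 fell in the RV, with a log2 fold change of -0.48 (SE 0.11, adjusted p = 0.0287, edgeR's quasi-likelihood test). That fit called 326 of 14899 genes (2.19%), and 16 members lay lower at an unadjusted p under 0.05, where 7.30% of all genes in it did. Without the control pair numbered 2, the blocked fit called 67 genes, Ifit2 had -0.37 with an adjusted p of 0.218, and 0 members were called. With the block in a model of all 12 libraries, Ifit2 had an adjusted p of 0.525. Among the members Gbp7 came next in the blocked fit of the control groups alone, with an adjusted p of 0.0552.

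Oas1a, another oligoadenylate synthetase, had the largest difference of the list in size, -1.04 (SE 0.42). It had 0.836, 0.794 and 0.391 CPM in control RV libraries 1 to 3, against 1.39, 2.16 and 0.529 CPM in control LV libraries 1 to 3. The LV libraries spread more widely than the distance between the groups, and the ranges overlapped. With control LV 2 left out, its difference was -0.55. Samhd1, which removes nucleotides needed for viral DNA, and Zbp1 were the 2 effectors above 0, with 0.08 (SE 0.09) and 0.13 (SE 0.47).

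All 6 genes of ubiquitin-like conjugation and ADP-ribosylation lay below 0, with a median of -0.18. Parp14 had 50.7, 49.5 and 42.9 CPM in control RV libraries 1 to 3, against 56.2, 62.0 and 52.7 CPM in control LV libraries 1 to 3, with no overlap (-0.26, SE 0.10, unadjusted p = 0.0178, edgeR's quasi-likelihood test). Isg15 had 0.390, 0.397 and 0.587 CPM in control RV libraries 1 to 3, against 0.771, 0.737 and 0.604 CPM in control LV libraries 1 to 3. The groups did not overlap, but the nearest libraries, both numbered 3, held 9 reads (RV) and 8 reads (LV), and the difference of -0.63 had an SE of 0.34. Trim25, which tags the RIG-I sensor with ubiquitin, had -0.01 (SE 0.13). The 3 genes of antigen processing lay between -0.30 (Tap1, the peptide transporter) and -0.08 (Psmb8, an immunoproteasome subunit), and their ranges overlapped. Of the 6 others, Lgals3bp had -0.33 (SE 0.14) and Rtp4, a receptor chaperone, -0.47 (SE 0.24), while Ifi27 and Ifi35 had 0.05 and -0.01.

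**Figure D2:**
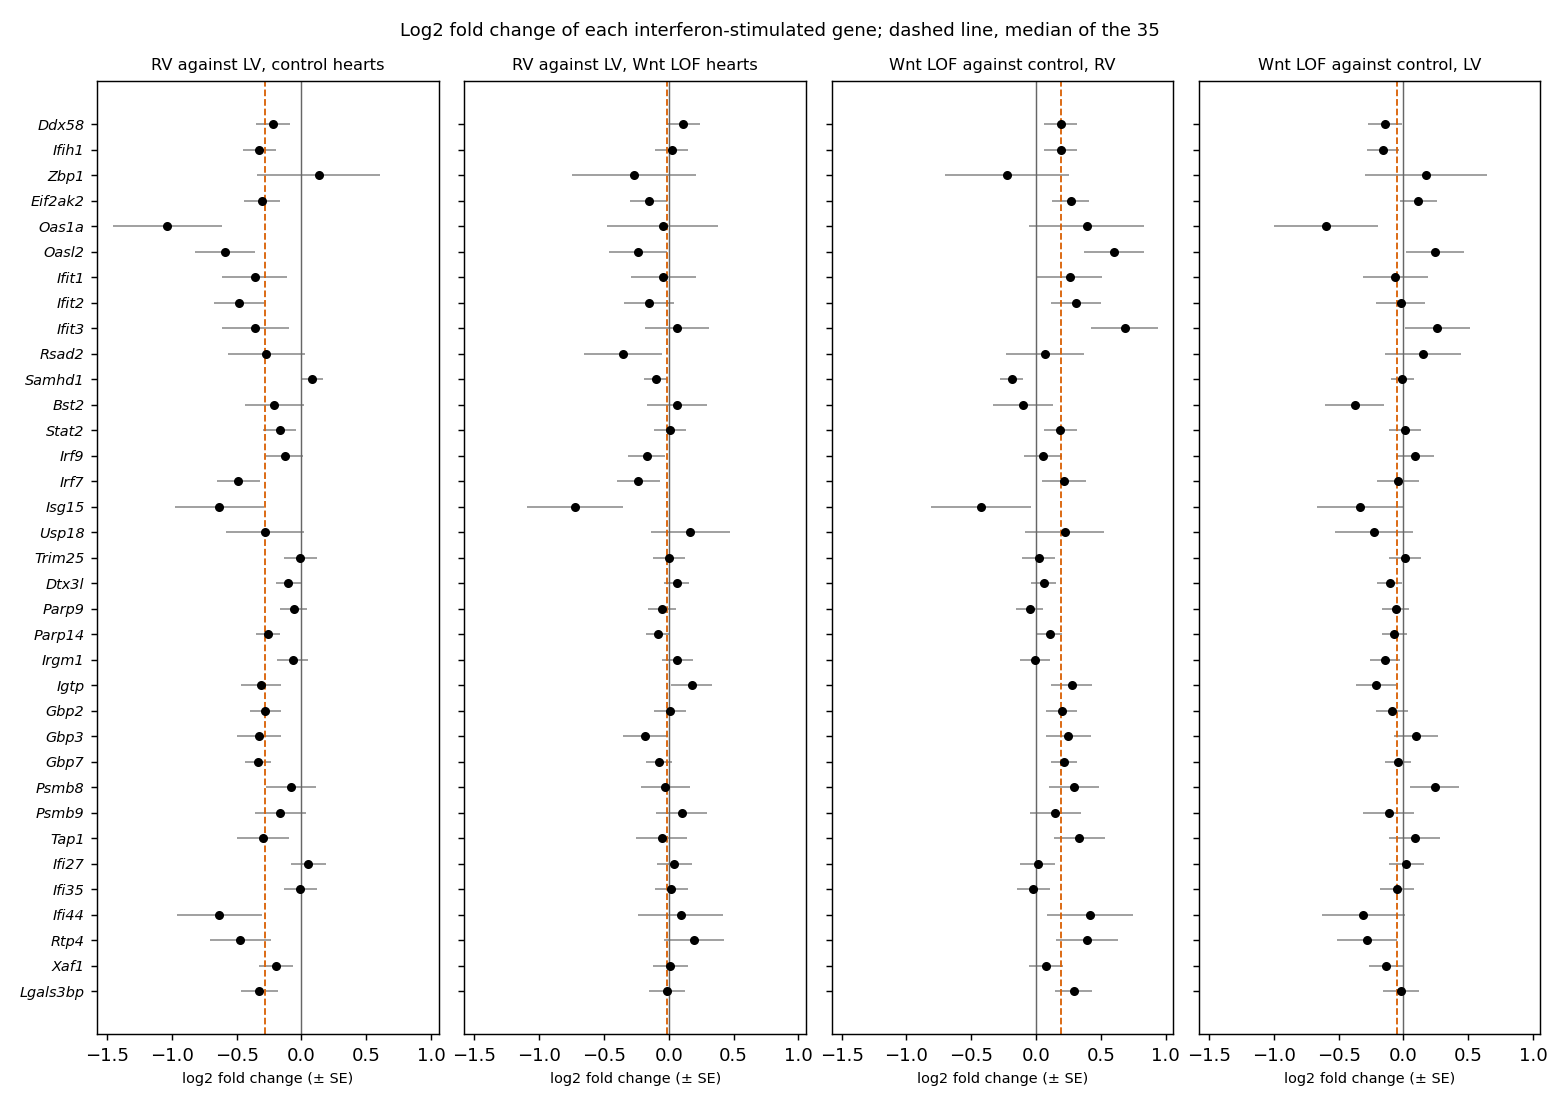
Log2 fold change of each of the 35 genes with its standard error (line) in 4 comparisons, with the median of the list as a dashed line. In control hearts 32 of the 35 points lie left of 0, with a median of -0.28, and in Wnt LOF hearts 18 do.

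Library by library, this difference leaned on a few samples. The deviation of each gene's log2 CPM from its own mean over the 12 libraries was taken, and its median over the 35 genes gave each library a level. Control RV libraries 1 to 3 had -0.09, -0.08 and -0.28, against 0.07, 0.26 and -0.10 in control LV libraries 1 to 3. The lowest LV library was below 2 of the RV libraries, and the pooled SD between libraries of a group was 0.13. The library labelled control LV 2 was the highest of all 12 for 18 of the 35 genes, and the library labelled control RV 3 was the lowest for 13. Without control LV 2 the median over members was -0.20, with 27 of 35 below 0 and 1 lower member at an unadjusted p under 0.05, where 49.1% of all genes in that fit lay below 0 and 2.90% were lower at that p. Without control RV 3 it was -0.22, with 29 below 0 and 2 lower members, where 49.3% and 3.32% of all genes were. With each of the 6 control libraries left out in turn, 9 members changed sign at least once, and 25, these included, moved by over 1.5 times. Among those named above, without control LV 2, Gbp3 had -0.15, Rtp4 -0.25 and Psmb8 0.13.

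**Figure D3:**
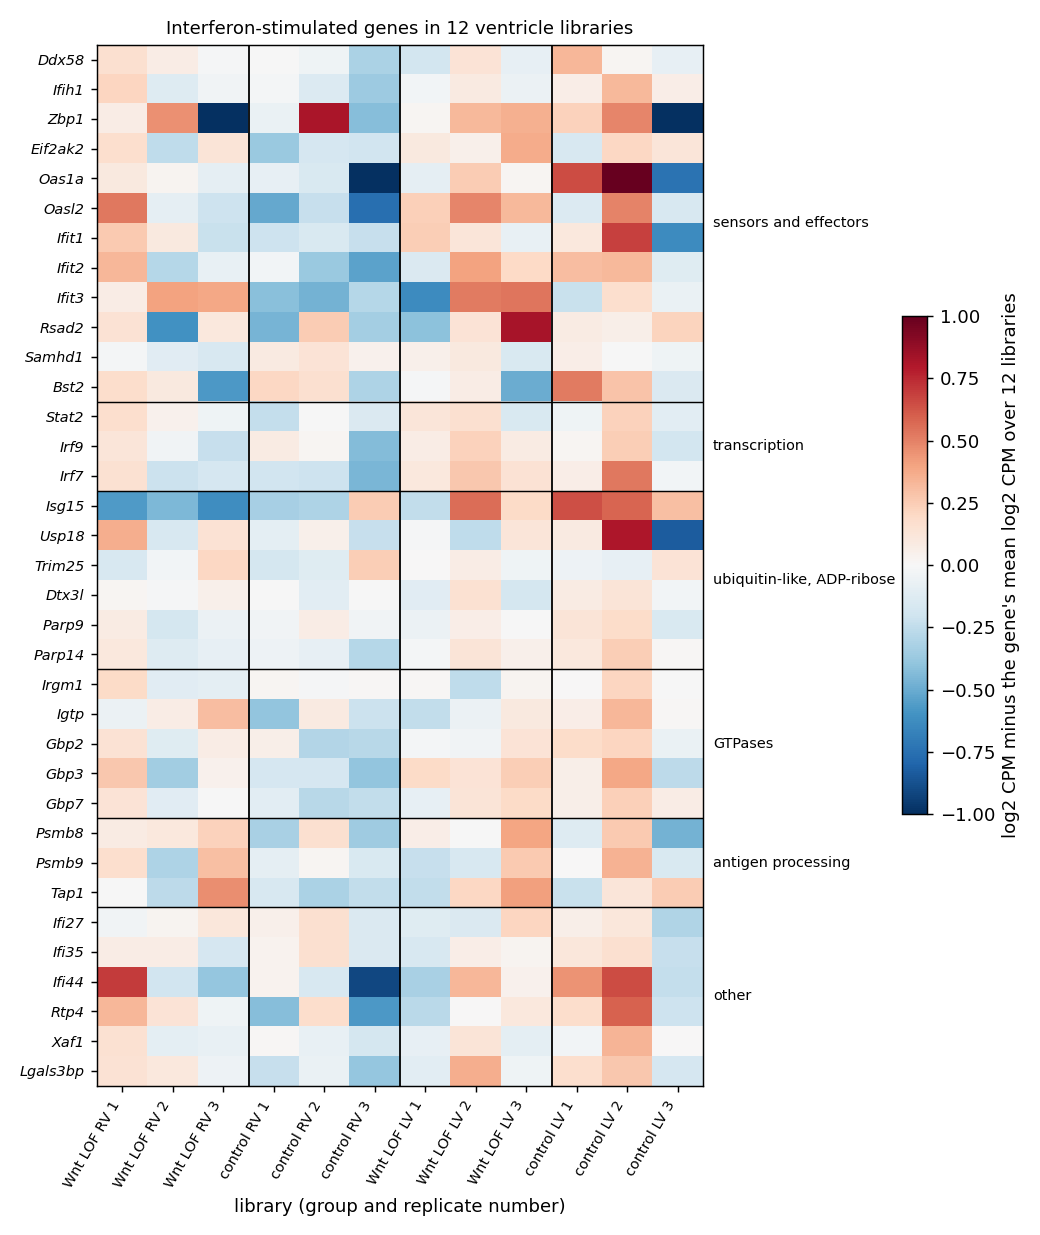
Log2 CPM of each gene minus its mean over the 12 libraries (colour, red above and blue below, clipped at 1 either way), with genes in rows by role and libraries in columns by group. The column of control LV 2 is mostly red, the column of control RV 3 mostly blue, and the 4 groups are not uniform within themselves.

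Wnt LOF against control in the RV gave small differences, mostly above 0. Of the 35 members, 28 had a log2 fold change above 0 and 7 below, where 50.3% and 49.7% of all genes did, and the median was 0.19. This comparison shares the 3 control RV libraries with that of the ventricles in control hearts, so the values are not independent of those above. edgeR's quasi-likelihood test called 0 members and 0% of genes, and at an unadjusted p under 0.05 there were 3 higher members and 0 lower, where 1.54% and 1.16% of all genes were higher and lower. Every Wnt LOF library lay above every control library for Oasl2, Ifit3 and Lgals3bp, and below for Samhd1 and Isg15, where 3.61% and 3.94% of all genes did so. The adjusted p of each member was 0.99998.

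Ifit3, a partner of Ifit1 in binding foreign RNA, had the smallest p. It had 4.94, 6.19 and 6.13 CPM in Wnt LOF RV libraries 1 to 3, against 3.51, 3.37 and 3.85 CPM in control RV libraries 1 to 3. The lowest Wnt LOF library was above the highest control library (log2 fold change 0.68, SE 0.26, unadjusted p = 0.0186, edgeR's quasi-likelihood test). With WntLOF LV 1 and WntLOF RV 1 left out the difference was 0.78 (adjusted p = 0.990). The 2 genes beside it on chromosome 19 had smaller values, 0.31 (SE 0.20) for Ifit2 and 0.26 (SE 0.25) for Ifit1, and their ranges overlapped.

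Oasl2 had 8.38, 5.47 and 5.04 CPM in Wnt LOF RV libraries 1 to 3, against 4.07, 4.96 and 3.46 CPM in control RV libraries 1 to 3. The library labelled WntLOF RV 1 stood well above the other 5, and the difference of 0.60 (SE 0.23, unadjusted p = 0.0223, edgeR's quasi-likelihood test) was 0.34 without it and WntLOF LV 1. Gbp7 had 35.8, 30.2 and 32.4 CPM in Wnt LOF RV libraries 1 to 3, against 30.3, 26.9 and 27.5 CPM in control RV libraries 1 to 3. The groups overlapped narrowly, at 30.2 and 30.3 CPM, and the difference was 0.22 (SE 0.10). Lgals3bp had 30.9, 30.1 and 27.0 CPM in Wnt LOF RV libraries 1 to 3, against 23.8, 26.7 and 21.4 CPM in control RV libraries 1 to 3, a difference of 0.29 (SE 0.14).

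Samhd1 ran the other way. It had 28.2, 26.4 and 25.6 CPM in Wnt LOF RV libraries 1 to 3, against 30.5, 31.5 and 29.5 CPM in control RV libraries 1 to 3 (log2 fold change -0.19, SE 0.09, unadjusted p = 0.0515, edgeR's quasi-likelihood test). Isg15 had 0.333, 0.361 and 0.319 CPM in Wnt LOF RV libraries 1 to 3, against 0.390, 0.397 and 0.587 CPM in control RV libraries 1 to 3, and its difference of -0.42 was close to its SE of 0.38. The difference was -0.21 without control RV 3. Isg15 held 6, 6 and 5 reads in these Wnt LOF RV libraries, against 7, 6 and 9 reads in control RV. Irf7 had 0.21 (SE 0.17), and Psmb8, Psmb9 and Tap1 had 0.29, 0.15 and 0.33, each with an SE of at least 0.19. Leaving out WntLOF RV 1 and WntLOF LV 1 gave a median over members of 0.10, with 25 of 35 above 0, where 50.5% of all genes in that fit were. With each of the 6 RV libraries left out in turn, 29 of the 35 members changed sign or moved by over 1.5 times, Ifit2 and Irf7 among them, with 0.12 and 0.09 without WntLOF RV 1, and Tap1, with 0.11 without WntLOF RV 3.

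**Figure D4:**
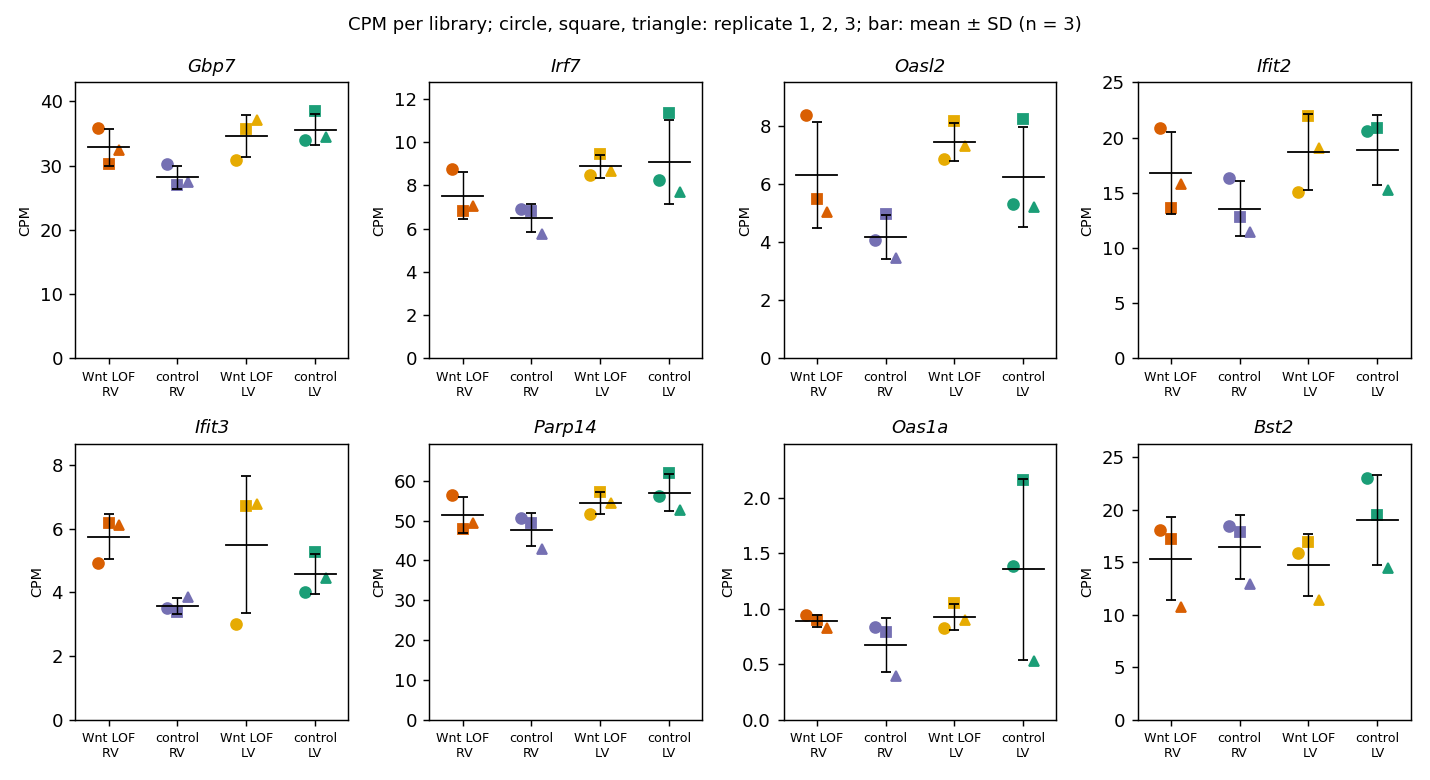
CPM of 8 interferon-stimulated genes in each library (circle, square and triangle for replicates 1, 2 and 3), with the mean and SD of each group of 3 as bars. Ifit3 in control RV lies between 3.37 and 3.85 CPM, below the Wnt LOF RV libraries, and Oas1a in control LV runs from 0.529 to 2.16 CPM.

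In the LV, Wnt LOF against control gave small differences on both sides of 0. Of the 35 members, 12 had a log2 fold change above 0 and 23 below, with a median of -0.05, where 49.1% and 50.9% of all genes lay above and below. edgeR's quasi-likelihood test called 0 members (0% of genes), 0 members had an unadjusted p under 0.05 (1.43% of genes higher, 1.42% lower) and in 0 members the groups did not overlap (3.95% of genes higher, 3.96% lower). Bst2 had the smallest p, with 15.9, 16.9 and 11.4 CPM in Wnt LOF LV libraries 1 to 3, against 23.03, 19.5 and 14.5 CPM in control LV libraries 1 to 3. The groups overlapped (-0.37, SE 0.23, unadjusted p = 0.127), and the difference was -0.20 without WntLOF LV 3. Oas1a had -0.60 (SE 0.40), Igtp -0.21 (SE 0.16), Psmb8 0.24 (SE 0.19) and Ifih1 -0.16 (SE 0.13). Without control LV 2 these were -0.11 for Oas1a, -0.10 for Igtp, 0.46 for Psmb8 and -0.06 for Ifih1, and each of the 35 members changed sign or moved by over 1.5 times with one or another of the 6 LV libraries left out. The direction of the median itself was set by 1 library, since without control LV 2 it was 0.03, with 22 of 35 above 0 (50.6% of all genes in that fit). Without control LV 2, WntLOF LV 1 and WntLOF RV 1 it was 0.09.

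Within Wnt LOF hearts, with the libraries as labelled, the members divided into 17 above 0 and 18 below (RV over LV), with a median of -0.01, where 49.8% and 50.2% of all genes lay above and below. None of the 35 was called by edgeR's quasi-likelihood test (0% of genes), and 0 had an unadjusted p under 0.05 (3.22% of genes higher, 1.59% lower). Isg15 alone of the members had groups that did not overlap, lower in the RV (3.67% of genes lower, 3.36% higher). Its difference was -0.72 (SE 0.37). It rested on 6, 6 and 5 reads in the Wnt LOF RV libraries, against 7, 11 and 10 reads in Wnt LOF LV. Irf7 had 8.77, 6.79 and 7.02 CPM in Wnt LOF RV libraries 1 to 3, against 8.47, 9.47 and 8.68 CPM in Wnt LOF LV libraries 1 to 3. The RV library numbered 1 lay inside the LV range and the other RV libraries below it (-0.24, SE 0.16). Without WntLOF RV 1 and WntLOF LV 1 the difference was -0.39. Rsad2, the antiviral enzyme viperin, had -0.35 (SE 0.30), which turned to 0.02 without WntLOF LV 3, a library with 26.7 CPM of it, and to -0.73 without WntLOF RV 1 and WntLOF LV 1. Irf9 had -0.17 (SE 0.14), and -0.28 without that pair of libraries. Samhd1 had -0.10 (SE 0.09) and Igtp 0.18 (SE 0.16).

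This comparison changed when WntLOF RV 1 and WntLOF LV 1 were left out. With 2 libraries a group, 28 of 35 members lay below 0, the median was -0.12 and 3 members were lower at an unadjusted p under 0.05. Of all genes in that fit, 49.7% lay below 0 and 3.92% were lower at that p. Ifit2 then had -0.48 (SE 0.19) in Wnt LOF hearts, against -0.48 (SE 0.16) in control hearts in the same model. Neither value passed the adjusted test (adjusted p = 0.505 in Wnt LOF hearts and 0.710 in control hearts).

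The difference of the differences was tested directly. The interaction term, the Wnt LOF effect in the RV minus that in the LV, was above 0 for 29 of 35 members and below for 6, where 50.9% and 49.1% of all genes were, with a median of 0.25. It called 0 members (0% of genes), and 1 member, Igtp, a GTPase of pathogen vacuoles, had an unadjusted p under 0.05 (1.05% of genes higher, 0.962% lower), with 0.49 (SE 0.22, unadjusted p = 0.0449, adjusted p = 0.9996, edgeR's quasi-likelihood test). Igtp had 10.3, 11.2 and 13.2 CPM in Wnt LOF RV libraries 1 to 3 and 8.14, 11.4 and 9.19 CPM in control RV libraries 1 to 3. It had 9.003, 10.3 and 11.4 CPM in Wnt LOF LV libraries 1 to 3 and 11.2, 13.5 and 10.8 CPM in control LV libraries 1 to 3. Wnt LOF and control libraries overlapped in both ventricles. The median of the interaction was 0.10 without WntLOF LV 1 and WntLOF RV 1, 0.08 without control LV 2 and -0.04 without all 3, so its direction rested on these libraries.

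The interferons themselves were nearly silent. Of 21 ligand genes none passed the filter. Ifnb1, the interferon beta gene, had 1 read over the 12 libraries, and Ifng, the interferon gamma gene, had 0, and a count of 0 allows up to 3 reads. Ifnk, the keratinocyte interferon, had 20 reads. All 6 receptor genes were measured, led by Ifngr2, a subunit of the gamma receptor, with 214 to 251 CPM, while Ifnar1, a subunit of the type I receptor, had 34.6 to 43.2 CPM. Ifnlr1, of the lambda receptor, had 6.22, 5.13 and 6.78 CPM in Wnt LOF LV libraries 1 to 3, against 4.27, 5.37 and 4.23 CPM in control LV libraries 1 to 3, a log2 fold change of 0.38 (SE 0.18), and 0.26 (SE 0.18) in the RV. Ifnar2, the other type I subunit, had 0.27 (SE 0.13) for RV over LV in Wnt LOF hearts and 0.08 (SE 0.13) in control hearts.

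Of the 11 kinases, STATs and IRFs outside the list, 8 lay below 0 for RV over LV in control hearts, with a median of -0.06, where 49.0% of all genes lay below 0, a share that also stands beside the later lists in that comparison. Irf4, a lymphoid regulator, had -0.57 (SE 0.23) for Wnt LOF over control in the RV, and Irf5, a myeloid regulator, had 0.22 (SE 0.17). None of the pathway genes named here had an adjusted p below 0.05 in any comparison by edgeR's quasi-likelihood test.

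Sensors and adaptors outside the list lay mostly lower in the RV of control hearts, with 12 of 13 below 0 and a median of -0.13 for RV over LV. Tlr3, the endosomal sensor of double-stranded RNA, had -0.25 (SE 0.14) there. For Wnt LOF over control in the RV it had 0.27 (SE 0.13), and Tlr7, the sensor of single-stranded RNA, had 0.48 (SE 0.22), with 2.83, 3.85 and 4.21 CPM in Wnt LOF RV libraries 1 to 3, against 2.51, 2.51 and 2.74 CPM in control RV libraries 1 to 3. The Wnt LOF libraries of Tlr7 were all above the control libraries. Negative regulators did not lean, with 4 of 9 tested genes above 0 in control hearts: Adar, which edits double-stranded RNA, had -0.20 (SE 0.11) and Socs3, which blocks the receptor kinases, 0.27 (SE 0.15).

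A longer list of 45 further interferon targets, of which 37 were tested, was read the same way in the same libraries. For RV over LV in control hearts, 29 of the 37 lay below 0 (49.0% of all genes), with a median of -0.21, and 6 were lower at an unadjusted p under 0.05 (2.50% of all genes). Uba7, the activating enzyme for Isg15, had -0.29 (SE 0.10), and Ifi203, of the family that senses DNA, had -0.40 (SE 0.14). Uba7 had 37.5, 37.5 and 39.6 CPM in control RV libraries 1 to 3, against 41.9, 49.4 and 48.8 CPM in control LV libraries 1 to 3, without overlap. For Wnt LOF over control 29 of 37 lay above 0 in the RV (median 0.11, with 50.3% of all genes above 0) and 12 of 37 in the LV (median -0.11, with 49.1% of all genes above 0). Ifi203 had 0.12 (SE 0.14) in the RV, against -0.39 (SE 0.14) in the LV for this comparison, with an interaction of 0.51 (SE 0.20, adjusted p = 0.9996 by edgeR's quasi-likelihood test).

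Of 7 tested GTPases outside the list, all lay below 0 for RV over LV in control hearts. Tgtp2 had -0.88 (SE 0.33) and Tgtp1 -0.21 (SE 0.37), but these are near copies whose reads cannot be told apart with certainty. Among 21 further genes of antigen presentation, 16 lay below 0 there, with a median of -0.10. Nlrc5, the activator of class I genes, had 5.91, 6.88 and 5.48 CPM in control RV libraries 1 to 3, against 7.81, 9.59 and 7.63 CPM in control LV libraries 1 to 3. Its ranges did not overlap (-0.46, SE 0.17), and Tapbp, which loads peptides on class I molecules, had -0.19 (SE 0.08).

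Markers of cell types were set beside the results. Over 10 endothelial markers, 9 lay below 0 for RV over LV in control hearts (49.0% of all genes), with a median of -0.16. Their summed level ran from 1372 to 1449 CPM in control RV, against 1439 to 1537 CPM in control LV, with overlap. Over 8 dendritic markers, a list that shares Bst2 with the members, the sums did not overlap. They were 62.6 to 63.4 CPM in control RV, against 70.2 to 74.1 CPM in control LV. Of the 6 dendritic markers tested, 4 lay below 0 and 2 above. All 5 erythroid markers lay above 0 for RV over LV in control hearts (51.0% of all genes), with a median of 0.61. The erythroid sums were 164 to 247 CPM in control RV, against 110 to 138 CPM in control LV, without overlap. Cardiomyocyte sums were 71428 to 75587 CPM in control RV, against 67683 to 71451 CPM in control LV, with overlap. Over 15 macrophage and myeloid markers the sum was 326 to 398 CPM in control RV, against 316 to 359 CPM in control LV. For Wnt LOF against control in the RV, 12 of the 15 myeloid markers lay above 0 (50.3% of all genes). Their sum was 352 to 413 CPM in Wnt LOF RV, against 326 to 398 CPM in control RV, with overlap. Of 8 mural markers 7 lay above 0 in this comparison. The mural sum was 2202 to 2487 CPM in Wnt LOF RV, against 2012 to 2111 CPM in control RV, without overlap. The fibroblast sums of these groups overlapped. Pan-leukocyte markers summed to between 36.5 and 55.0 CPM over all libraries and lymphocyte markers to between 2.04 and 5.43 CPM, while the neutrophil genes Ly6g and Mpo were at 0 in all. The part of these cell types in the results was not tested.

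In the authors' deposited tables, which compare Wnt LOF with control in each ventricle, 33 of the 35 members are listed among 14179 genes, without Isg15 and Zbp1. The authors' deposited tables call 0 genes in either ventricle, with the smallest adjusted p at 0.918 in the RV and 0.841 in the LV. For the RV, the authors' deposited table has a median log2 fold change of 0.20 over the members, with 28 above 0, against 0.003 over all genes. At an unadjusted p under 0.05 it has 8 members, among 764 of the 14179 genes. Of these members Samhd1 lay lower, with -0.17, and the others higher. For the LV, the authors' deposited table has a median of -0.07, with 10 members above 0, against -0.001 over all genes. It has 1 member, Bst2, at an unadjusted p under 0.05, among 794 of the 14179 genes. Bst2 did not reach that p in the fit made here.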

How the data were processed

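RNA was isolated from ventricle with Trizol and made into Illumina libraries, per the labels' protocols. The count table deposited by the authors holds raw counts by Ensembl ID, made with featureCounts of the Subread package, per the submitters' processing notes, which also name edgeR. Aligner, genome build, strand setting and treatment of shared reads: not given in the sources used here. The table had 41192 rows for 40594 genes, of which 598 repeats were dropped. For Wnt LOF against control in each ventricle the authors deposited a table of log2 fold changes, linear fold (ratio) values and p-values, per the file headers, quoted as theirs.

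Groups came from the sample titles. Counts of the 12 libraries were fitted in 1 model with edgeR 4.0.16 (R 4.3.3, TMM factors of 0.961 to 1.04, filterByExpr, robust quasi-likelihood test) for 5 contrasts, with Benjamini-Hochberg adjustment over 15494 genes and a threshold of 0.05. CPM used the TMM-scaled library sizes, and log2 CPM a prior count of 2. A gene of 1 CPM rests on about 13 to 19 reads a library, which limits the precision of the low members. Levels per kb used the union of all exons annotated to a gene in a GENCODE annotation, matched by Ensembl ID. That length can exceed a single transcript's and then lowers the level per kb, so the order of levels depends on the annotation. The fit was tested on simulated data with known changes.

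The members and all gene lists were chosen with earlier results of these data known. The text names the 5 members with the smallest p in each comparison, the member with the highest CPM, 2 genes of each pathway list by their smallest p, and Ifnb1 and Ifng. A further gene that the rule names is not reported here. Other names were chosen after their values were seen. Same-numbered RV and LV libraries deviated together (correlations over genes of 0.411, 0.290 and 0.517 in control hearts and 0.191, 0.197 and 0.594 in Wnt LOF hearts), so the numbers were taken to pair ventricles within a genotype. The labels hold only numbers, so the pairing was taken from these correlations. In Wnt LOF hearts the correlations do not separate numbers 1 and 2. RV 2 with LV 1 had 0.201 and RV 1 with LV 2 had 0.133. H2-Eb1, noticed after the values were seen, was alike there in same-numbered ventricles and differed between numbers 1 and 2. Number 3 is the library with Y-linked reads in every group. Wnt LOF and control libraries numbered 3 also correlated, with 0.233 in the LV and 0.306 in the RV. For number 3 a shared heart and a shared sex cannot be told apart. The library labelled WntLOF LV 1 correlated with control LV 2 at 0.321, although their numbers differ, and the cause was not tested. Alternatives were other scalings and filters, DESeq2 1.42.0, groups fitted alone, the replicate block, a term for Y-linked reads and libraries left out. The blocked control fit without its second pair was added after the data were seen.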

Additional observations from a re-analysis of the deposited data

How the results depend on the processing

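The count of members called was 0 in all 5 comparisons under every alternative, except 1 (Ifit2, RV against LV in control hearts) with the replicate block and the groups compared alone. Counts of genes called were 0, with 757 genes at an unadjusted p under 0.05 by edgeR and 683 by DESeq2 for RV against LV in control hearts. The other counts at that p, by edgeR and DESeq2 in turn, were 746 and 645 for RV against LV in Wnt LOF hearts, 418 and 303 for Wnt LOF against control in the RV, 442 and 323 in the LV, and 312 and 215 for the interaction, and DESeq2 called 0 genes in each. For RV against LV in control hearts the count of genes called was 9 with the groups compared alone, 326 with the replicate block as well, 67 with that block and without the control pair numbered 2, and 2 without WntLOF LV 1 and WntLOF RV 1, also when control LV 2 was left out too. For RV against LV in Wnt LOF hearts it was 1 with the replicate block, alone or in the whole model, 1 without WntLOF RV 1 and 2 without WntLOF LV 1 and WntLOF RV 1, with or without control LV 2. For the interaction it was 1 with the replicate block, which changed no other call of a member. With each library left out in turn, the median log2 fold change over members ran from -0.31 to -0.20 for RV against LV in control hearts, from -0.08 to -0.01 in Wnt LOF hearts, from 0.10 to 0.27 for Wnt LOF against control in the RV, from -0.14 to 0.03 in the LV and from 0.08 to 0.29 for the interaction, the count of members called stayed at 0, and genes called ran from 0 to 1. The median of the interaction was 0.0788 without control LV replicate 2, 0.0959 without WntLOF LV 1 and WntLOF RV 1 and -0.0370 without these and control LV 2, and that of Wnt LOF against control in the LV was 0.0880 without the 3. Rsad2, RV against LV in Wnt LOF hearts, reversed to 0.0221 without WntLOF LV replicate 3, in a range from -0.60 to 0.02 with 1 library left out at a time, and was -0.73 without WntLOF LV 1 and WntLOF RV 1. The cause of these changes was not tested. With 2 libraries left in a group, its spread is taken from all groups.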

Other observations

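One class II antigen presentation gene, H2-Eb1, held a pattern that follows neither genotype nor ventricle, and it was noticed after the values were seen. This class II beta chain had 0.555, 6.91 and 14.9 CPM in Wnt LOF RV libraries 1 to 3 and 4.40, 0.926 and 10.6 CPM in control RV libraries 1 to 3. It had 0.474, 6.18 and 12.4 CPM in Wnt LOF LV libraries 1 to 3 and 6.07, 0.843 and 11.03 CPM in control LV libraries 1 to 3. The RV and LV libraries of the same number were alike within each genotype, so that 4 libraries stayed under 1 CPM and the other 8 were at 4.40 CPM or more. H2-Aa, another class II gene, did not share this, with 24.5 to 29.9 CPM in the low Wnt LOF libraries and 34.8 to 36.2 CPM in the low control libraries, inside the range of the rest. H2-T23, a class I-like gene, had 20.4 and 15.8 CPM in the low Wnt LOF libraries and 16.4 and 20.0 CPM in the low control libraries, against 10.2 to 14.3 CPM in the other 8. The cause was not tested.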
